A study of Arabidopsis thaliana with 6 samples.

Results

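Respiratory complex I (NADH:ubiquinone oxidoreductase) oxidises NADH in the mitochondrial matrix, passes the electrons to ubiquinone in the inner membrane and pumps protons. Its matrix arm holds the flavin and the iron-sulfur clusters, and its membrane arm holds the proton channels. In plants the arm in the membrane carries an additional domain of gamma carbonic anhydrases on its matrix side. Part of the subunits are encoded by mitochondrial nad genes and the rest by the nucleus, so each complex needs products of both genomes. The transcripts described here are those of 35 nuclear genes for complex I subunits, taken from a list of gene identifiers by subunit annotation. The rule uses no measured value, although the list was drawn up with earlier results of these data known. All 35 identifiers were found among the 32833 genes of the table and all 35 had reads in every library. By role they comprised 6 core subunits of the matrix arm, 7 accessory subunits of the matrix arm, 17 accessory subunits placed with the membrane arm and 5 gamma carbonic anhydrases or related proteins.

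Root RNA came from 3 libraries of xal1-2, a loss-of-function mutant of the MADS-box transcription factor gene XAANTAL1 (XAL1, or AGL12), and from 3 libraries of the Col-0 wild type (WT). In both genotypes a replicate was a pool of about 60 plants, harvested 8 days after sowing, and the roots were taken free of hypocotyl and cotyledons. Both were grown upright on 0.2X Murashige and Skoog salts with 1% sucrose at 22 °C, in 16 h of light and 8 h of dark. The series concerns root growth, hydrogen peroxide and differentiation, and the comparison asks which transcripts differ between the mutant and the wild-type root.

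XAL1 transcripts were lower in the mutant. Its counts, scaled by the authors for library depth, were 76.5, 102.0 and 103.2 in xal1-2 and 263.8, 250.1 and 268.7 in WT (log2 fold change -1.48, adjusted p = 0.00034, limma). Libraries held 6978879 to 9247089 reads in xal1-2 and 7740207 to 8962691 reads in WT. Of 10 root tissue markers all were detected, and 1, the Casparian strip gene CASP1, fell in xal1-2, beside 556 of 24441 genes tested. The log2 fold change was above 0 for 7 of the 10 and below 0 for 3. Their summed level was 2319 to 2665 scaled counts in xal1-2 and 2862 to 3351 in WT, without overlap. Of 7 markers of differentiated phloem, xylem and suberised tissue 6 fell, beside the same share of all genes. The median log2 fold change over that list was -0.81. The sieve element gene SEOR2 fell by 1.14, the companion cell sucrose carrier gene SUC2 by 0.91 and the suberin gene CYP86A1 by 0.88 on the log2 scale. SUC2 was not called when any 1 library was left out (adjusted p up to 0.134), CASP1 when any 1 of 4 was (up to 0.115) and SEOR2 without xal1-2 replicate 1 (0.055). None of 7 markers of dividing cells was called by limma, edgeR or DESeq2, beside 3.93% of all genes tested that limma called. At an unadjusted p under 0.05 in limma 1 was higher and 1 lower, beside 9.02% and 10.5% of all genes. The summed level of these 7 markers was 1120 to 1178 scaled counts in xal1-2 and 1071 to 1298 in WT. Green tissue markers summed to 2341 to 4079 scaled counts in xal1-2 and 2842 to 3893 in WT, so some transcripts of green cells were present in both genotypes, and RBCS1B and RBCS2B were at 0 in 3 of the 6 libraries. What part these shifts in tissue markers have in the complex I values was not tested. In such bulk samples fewer cells of a type and less RNA per cell cannot be told apart.

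Transcripts of the complex I subunits were nearly level between the genotypes. None of the 35 genes passed an adjusted p of 0.05 in limma, beside 961 of 24441 genes tested overall (3.93%). Among the 7509 genes whose mean level was at or above that of the least abundant of the 35 (PGIV-1), 447 were called (5.95%). Of the 35 genes 16 lay above 0 and 19 below, and the median log2 fold change, xal1-2 over WT, was -0.02 (quartiles -0.11 and 0.07). Over all genes tested the median was -0.004 (quartiles -0.24 and 0.23), and over the 7509 genes of like or higher level it was -0.04 (quartiles -0.18 and 0.11). The sign of the small median of the 35 genes depended on the scaling, and it was 0.04 when libraries were scaled by their totals, where that of all genes was 0.05.

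At an unadjusted p under 0.05, 4 genes were lower in xal1-2 (AGGG, CAL1, B16.6-2 and AT1G67785), a share to be read beside 10.5% of all genes tested, and 0 were higher, beside 9.02%. The 3 values of each genotype did not overlap for 7 genes. Of these, 5 were lower in xal1-2 (AGGG, CAL1, B16.6-2, PSST and B16.6-1), beside 11.7% of all genes, and 2 were higher (CA1 and CA3), beside 12.1%. Count tests on the recovered reads called 0 of the 35 genes with edgeR (5.56% of 18918 genes) and 1 with DESeq2, AGGG (lower in xal1-2, as were 3.43% of 19227 genes). The authors' deposited table holds AGGG, alone of the 35 genes, at an adjusted p under 0.05, beside 3.43% of its 19322 genes with an adjusted p that were so called and lower.

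The smallest number of reads of any of these genes in any library was 176. Standard errors of the log2 fold changes in limma, which draws the variance of each gene toward a trend over all genes, ran from 0.09 to 0.13. They were alike for the weakly covered PGIV-1 (0.12) and the deeply covered 75 kDa gene (0.13). The authors' deposited table gives 0.17 for PGIV-1 and 0.13 for the 75 kDa gene. For 34 of the 35 genes the 95% interval of limma stayed within a 1.5-fold change in either direction, the exception being AGGG. The lowest bound of all intervals was a ratio of 0.65 (AGGG) and the highest a ratio of 1.40 (CA2), xal1-2 over WT. The intervals of 31 genes included 0, and 18 genes differed by less than 0.1 on the log2 scale.

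**Figure D1:**
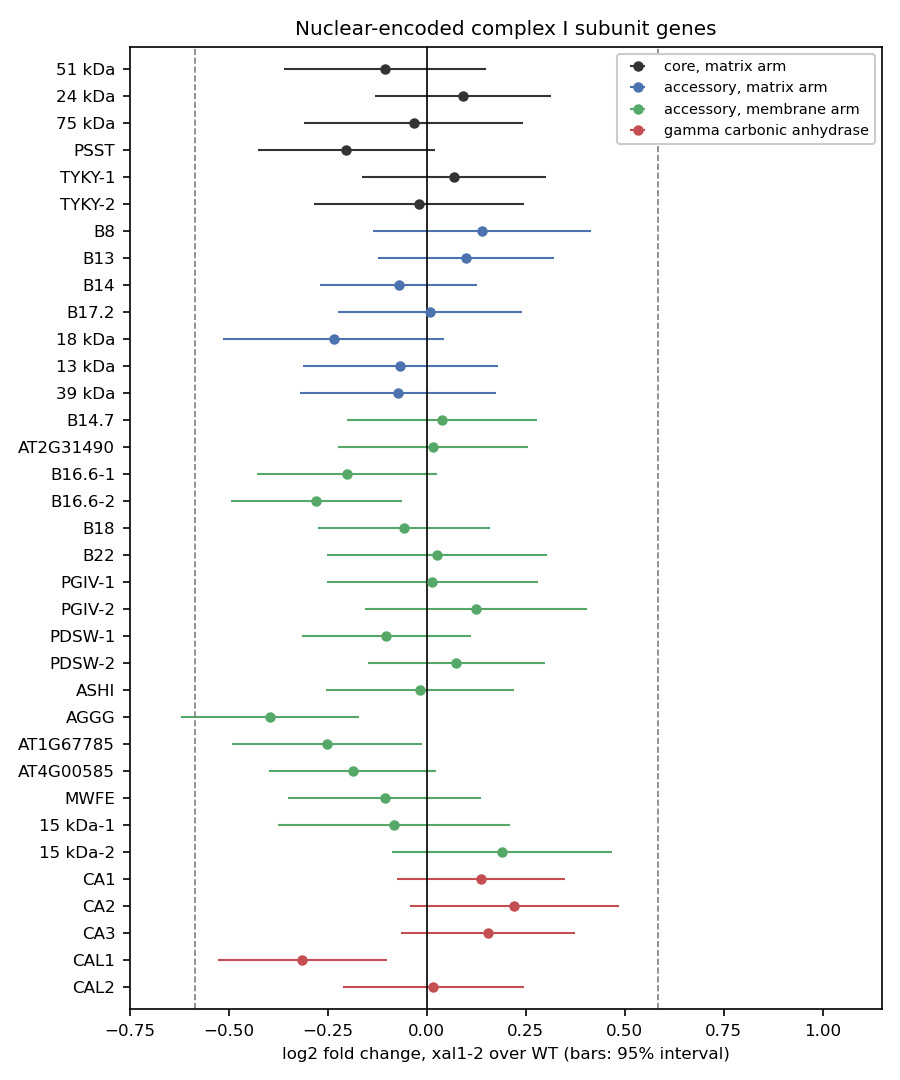
Log2 fold change (xal1-2 over WT, horizontal axis) of each of the 35 complex I subunit genes, with its 95% interval from limma as a bar and colours for the groups of subunits; dashed lines mark a 1.5-fold change. The interval of AGGG alone crosses a dashed line, and 31 of the 35 intervals include 0.

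Upstream of many of these genes lay copies of a short promoter element. Site II elements are bound by TCP transcription factors and are known from promoters of plant genes for mitochondrial proteins and for growth. The letters TGGGCC or TGGGCT, on either strand, were searched in the 250 bases before each annotated gene start in the reference genome (TAIR10.1). They occurred before 20 of the 35 genes (57.1%), against 20.6% of the 24323 genes tested that had such a window. Those include many weakly expressed genes, and the share among genes of like or higher level was not computed. At least 2 matches, with overlapping ones counted apart, were found before 16 genes (45.7%), against 13.1% of all genes. The 35 genes held 44 matches in all, and 41 of these lay within 100 bases of the annotated start. Windows of 21 of the 35 genes overlapped another annotated gene, so a match there belongs to the surroundings of both. By group, a match was present before 2 of 6 core genes, 6 of 7 accessory genes of the matrix arm, 10 of 17 of the membrane arm and 2 of 5 of the carbonic anhydrase domain. Among the other respiratory complexes the numbers were 2 of 13 genes for complex II, 9 of 15 for complex III, 4 of 10 for complex IV and 7 of 14 for complex V (ATP synthase).

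The 150 bases before the annotated start are printed for 6 genes with clustered matches and, for contrast, for CA2, which had none. They were chosen among windows that overlap no other gene. Each is given 5′ to 3′ on the strand of its gene, with capitals for site II matches on either strand, and GGCCCA and AGCCCA are the same letters read on the other strand.
AGGG: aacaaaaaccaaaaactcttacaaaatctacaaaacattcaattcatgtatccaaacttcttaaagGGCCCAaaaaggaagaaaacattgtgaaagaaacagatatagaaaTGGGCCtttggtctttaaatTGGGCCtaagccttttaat
AT2G31490: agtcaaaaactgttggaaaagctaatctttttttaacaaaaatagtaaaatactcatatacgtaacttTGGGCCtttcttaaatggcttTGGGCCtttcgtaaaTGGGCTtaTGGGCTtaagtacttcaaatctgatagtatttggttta
24 kDa: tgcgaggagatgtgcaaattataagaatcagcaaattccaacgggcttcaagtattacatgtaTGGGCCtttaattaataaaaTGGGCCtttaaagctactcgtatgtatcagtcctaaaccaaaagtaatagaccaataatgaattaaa
75 kDa: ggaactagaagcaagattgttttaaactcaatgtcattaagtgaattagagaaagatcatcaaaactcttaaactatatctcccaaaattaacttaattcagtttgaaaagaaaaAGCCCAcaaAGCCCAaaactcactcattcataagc
39 kDa: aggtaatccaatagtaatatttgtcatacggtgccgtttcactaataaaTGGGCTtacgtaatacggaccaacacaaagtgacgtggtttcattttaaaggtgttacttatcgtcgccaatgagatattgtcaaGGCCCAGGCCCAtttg
15 kDa-1: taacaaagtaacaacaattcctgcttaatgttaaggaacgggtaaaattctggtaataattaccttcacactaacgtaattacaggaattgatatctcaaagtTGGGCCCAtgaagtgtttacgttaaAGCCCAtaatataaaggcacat
CA2: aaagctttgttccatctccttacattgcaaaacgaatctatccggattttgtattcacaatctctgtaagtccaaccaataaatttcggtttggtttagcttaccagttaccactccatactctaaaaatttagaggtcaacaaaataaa
These stretches lie at chr1:28593061-28593210 (AGGG), chr2:13411790-13411939 (AT2G31490), chr4:1134279-1134428 (24 kDa), chr5:14897179-14897328 (75 kDa) and chr2:8785810-8785959 (39 kDa) on the plus strand, and at chr3:23224327-23224476 (15 kDa-1) and chr1:17323485-17323634 (CA2) on the minus strand, in TAIR10.1. AT2G31490 had 4 matches, with the farthest at position -82 and the nearest at -38 from the start. AGGG had matches at -84, -39 and -19. In 15 kDa-1 the matches at -47 and -45 overlapped, because the run reads as the element on both strands.

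**Figure D2:**
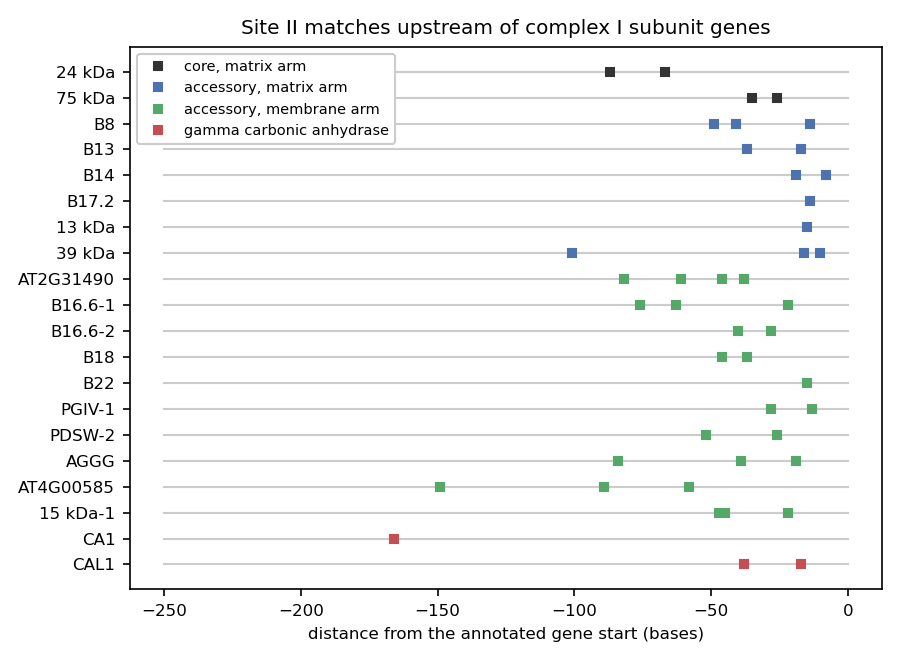
Positions of site II matches (TGGGCC or TGGGCT, either strand) in the 250 bases before the annotated start of the 20 complex I subunit genes that had a match; the horizontal axis is the distance from the start in bases. Most matches crowd into the nearest 100 bases, and CA1 has a single match at -166.

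The genes with and without the element were set side by side in the mutant comparison. The median log2 fold change was -0.05 over the 20 genes with a match (range -0.40 to 0.14) and -0.02 over the 15 without (range -0.25 to 0.22), 2 groups that were not tested against each other. Another element, the mitochondrial dysfunction motif bound by NAC factors of retrograde signalling, was searched as CTTG, any 5 bases, then CAAG or CACG, on either strand. It occurred before 1 of the 35 genes, the 51 kDa gene at -236, against 1.08% of all genes, and the other 34 windows did not hold these letters.

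The core of the matrix arm is the electron path. The 51 kDa subunit binds NADH and the flavin, the 24 kDa and 75 kDa subunits carry iron-sulfur clusters, TYKY carries a pair of clusters further along, and PSST holds the last cluster before ubiquinone. None of the 6 genes was called by limma, edgeR or DESeq2 (0 at an unadjusted p under 0.05), beside 3.93% of all genes tested that limma called. PSST had the lowest adjusted p of the group (0.305, limma). The group had a median log2 fold change of -0.03, with 2 genes above 0 and 4 below.

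PSST (AT5G11770, chr5:3790708-3793026) had 2169.7, 2235.0 and 1968.7 scaled counts in xal1-2 and 2461.0, 2434.1 and 2431.0 in WT. All mutant values lay under all wild-type values, and the wild-type values were nearly equal. Its log2 fold change of -0.20 (SE 0.10) had an adjusted p of 0.305 in limma, with a 95% interval from -0.43 to 0.02. The 75 kDa gene had the most reads per gene among the 35, at 3333, 3990 and 3177 scaled counts in xal1-2 and 3655, 3762 and 3292 in WT, and its groups overlapped. The 51 kDa gene averaged 2382 ± 309 scaled counts in xal1-2 and 2548 ± 54 in WT (SD, n = 3 each). The 24 kDa gene averaged 1706 ± 126 in xal1-2 and 1600 ± 78 in WT. TYKY is encoded by 2 genes, which averaged 1247 ± 130 (TYKY-1) and 1344 ± 157 (TYKY-2) in xal1-2 and 1187 ± 65 and 1362 ± 156 in WT. For these 5 genes the values of the genotypes overlapped.

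The accessory subunits of the matrix arm surround the core and include proteins with roles in assembly or stability. None of the 7 genes was called by limma, edgeR or DESeq2 (0 at an unadjusted p under 0.05), beside 3.93% of all genes tested that limma called. The lowest adjusted p was 0.343 (limma), and the median log2 fold change was -0.07, with 3 genes above 0 and 4 below. The 18 kDa gene (AT5G67590), also known as FROSTBITE1 from a mutant with a weakened cold response, had 1122, 1415 and 1236 scaled counts in xal1-2 and 1608, 1593 and 1250 in WT. WT replicate 3 lay among the mutant values, so the groups overlapped, and its log2 fold change was -0.24 (SE 0.13). B8, a small subunit with a thioredoxin-like fold, averaged 1106 ± 84 in xal1-2 and 1011 ± 158 in WT, where WT replicate 3 was again the low library at 828.9 scaled counts. B14, an LYR-motif protein, averaged 882 ± 32 in xal1-2 and 927 ± 30 in WT. B17.2 averaged 1987 ± 106 in xal1-2 and 1978 ± 157 in WT, the smallest log2 fold change of the 35 genes in size (0.01). B13 averaged 1791 ± 84 in xal1-2 and 1673 ± 120 in WT, the 13 kDa gene 1122 ± 109 in xal1-2 and 1176 ± 117 in WT, and the 39 kDa gene, whose product binds a nicotinamide nucleotide, 2223 ± 247 in xal1-2 and 2331 ± 115 in WT.

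The accessory subunits placed with the membrane arm were the largest group, with 17 genes, and held the lowest fold change of all. Their median was -0.06, with 7 genes above 0 and 10 below, and 3 of the 17 were lower in xal1-2 at an unadjusted p under 0.05, beside 10.5% of all genes tested. AGGG (AT1G76200, chr1:28593211-28594750), a small subunit of the membrane arm, had 1546.5, 1593.5 and 1471.0 scaled counts in xal1-2 and 2216.8, 1962.5 and 1903.7 in WT. Every mutant value lay under every wild-type value, and WT replicate 1 was the highest library. The log2 fold change was -0.40 (SE 0.10), a ratio of means of 0.76, and the adjusted p was 0.055 in limma, 0.053 in edgeR and 0.019 in DESeq2. With limma fitted only to the genes with a mean scaled count of at least 10, its adjusted p was 0.0489. The call of AGGG thus differed with the tool and with the set of genes fitted and adjusted over. When 1 library was left out in turn, its adjusted p ran from 0.055 to 0.177. The authors' deposited table gives AGGG a log2 fold change of -0.40 with an adjusted p of 0.0191. Its annotated exons share no stretch of 50 bases with another gene.

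The 2 genes for B16.6, the plant counterpart of GRIM-19, a subunit known in mammals also for a role in cell death, both had lower values in xal1-2. B16.6-2 (AT2G33220) had 889.1, 845.6 and 791.5 scaled counts in xal1-2 and 1082.3, 943.2 and 1041.9 in WT (log2 fold change -0.28, SE 0.10, adjusted p = 0.143 in limma). B16.6-1 (AT1G04630) had 325.3, 291.0 and 278.8 in xal1-2 and 349.6, 344.9 and 333.6 in WT (log2 fold change -0.20, SE 0.10, adjusted p = 0.315). For both genes the groups did not overlap, and neither gene was called. AT1G67785, given in the reference as an uncharacterized protein, had 822.9, 976.0 and 850.7 in xal1-2 and 1135.5, 1081.0 and 941.3 in WT (log2 fold change -0.25, adjusted p = 0.229). WT replicate 3 lay under the highest mutant value there. AT4G00585, also uncharacterized in the reference, averaged 666 ± 41 in xal1-2 and 759 ± 44 in WT. No role is given here for these or for AT2G31490, which averaged 970 ± 95 in xal1-2 and 960 ± 87 in WT.

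The other membrane arm genes had log2 fold changes from -0.11 (MWFE) to 0.19 (15 kDa-2). MWFE, needed for assembly in mammals, averaged 1753 ± 185 scaled counts in xal1-2 and 1882 ± 120 in WT. B14.7, related to the import channel proteins Tim17, Tim22 and Tim23, averaged 1330 ± 160 in xal1-2 and 1289 ± 42 in WT. B22, an LYR-motif protein like B14, averaged 1920 ± 194 in xal1-2 and 1892 ± 263 in WT. B18 averaged 977 ± 78 in xal1-2 and 1016 ± 47 in WT, and ASHI averaged 1174 ± 134 in xal1-2 and 1185 ± 55 in WT. PGIV-1 averaged 232 ± 27 in xal1-2 and 229 ± 12 in WT, and PGIV-2, the more abundant copy of this cysteine-rich subunit, 994 ± 163 in xal1-2 and 908 ± 98 in WT. PDSW-1 averaged 918 ± 25 in xal1-2 and 987 ± 82 in WT, and PDSW-2 1570 ± 116 in xal1-2 and 1490 ± 91 in WT. The 15 kDa-1 gene averaged 384 ± 60 in xal1-2 and 406 ± 48 in WT. Of the genes above 0 in this group, 15 kDa-2 was the highest, with 587.8, 797.6 and 706.8 in xal1-2 and 664.4, 623.7 and 538.3 in WT (log2 fold change 0.19, SE 0.13, adjusted p = 0.449 in limma). Its groups overlapped, since the first mutant library lay under 2 of the wild-type values.

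The gamma carbonic anhydrase domain is specific to plants and some protists among eukaryotes and is needed for the assembly of the complex, and CA2 mutants of Arabidopsis are known to hold little complex I. The CAL proteins resemble the CA proteins but lack part of the residues of the active site. In this group the median log2 fold change was 0.14, with 4 of 5 genes above 0, beside 12108 of 24441 genes tested, and CAL1 below. None of the 5 was called by limma, edgeR or DESeq2, beside 3.93% of all genes tested that limma called. CAL1 was lower at an unadjusted p under 0.05 in limma, beside 10.5% of all genes tested. Summed over the domain the level was 6307 ± 447 scaled counts in xal1-2 and 5949 ± 410 in WT (SD, n = 3 each), and the groups overlapped.

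CA2 (AT1G47260, chr1:17319551-17323484) had 2294.1, 2822.3 and 2469.0 scaled counts in xal1-2 and 2404.6, 2123.4 and 1974.9 in WT. The first wild-type library lay above the lowest mutant one, and the log2 fold change of 0.22 (SE 0.12) was the highest of the 35 genes, with an adjusted p of 0.345 in limma. CA3 had 1605.9, 1725.7 and 1506.3 in xal1-2 and 1502.4, 1476.6 and 1362.6 in WT (log2 fold change 0.16, adjusted p = 0.436). CA1 had 376.6, 425.9 and 400.6 in xal1-2 and 362.6, 358.1 and 372.0 in WT (log2 fold change 0.14, adjusted p = 0.480). For CA3 and CA1 the mutant values all lay above the wild-type values, with a narrow gap between the groups, as in 12.1% of all genes tested whatever the gap. CAL1 (AT5G63510) went the other way, with 905.1, 920.1 and 796.8 in xal1-2 and 1131.2, 1052.3 and 1073.8 in WT (log2 fold change -0.31, SE 0.10). Its groups did not overlap (xal1-2 lower, as in 11.7% of all genes tested), and its adjusted p was 0.099 in limma, 0.10 in edgeR and 0.120 in DESeq2. CAL2 had 867.4, 929.8 and 876.3 in xal1-2 and 996.6, 846.3 and 809.7 in WT, with a log2 fold change of 0.02.

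Several subunits are encoded by more than 1 gene, which allows the balance between copies to be read within each library. Shares below are of the reads per kilobase of annotated exon summed over the copies, and they were described without a test. For the 15 kDa subunit, 15 kDa-2 made up 52.2%, 52.0% and 52.5% in xal1-2 and 48.9%, 45.8% and 47.9% in WT, so that the share was higher in every mutant library. For PDSW, PDSW-2 made up 66.5%, 69.2% and 68.0% in xal1-2 and 64.5%, 65.6% and 65.5% in WT, also without overlap. CAL1, set against CAL2 after their values had been seen, made up 51.6%, 50.3% and 48.1% in xal1-2 and 53.7%, 55.9% and 57.5% in WT. Its share was lower in every mutant library. How often such shares separate among other gene copies was not computed. For the levels of single genes, the groups did not overlap in 11.7% of all genes tested (xal1-2 lower) and 12.1% (xal1-2 higher). The copies of the other subunits kept shares that overlapped between the genotypes. PGIV-2 made up 89.0 ± 1.56% in xal1-2 and 88.2 ± 0.881% in WT, B16.6-2 64.8 ± 0.704% in xal1-2 and 66.0 ± 1.68% in WT, and TYKY-1 52.3 ± 0.417% in xal1-2 and 50.7 ± 1.86% in WT. Among the CA genes CA3 made up 52.7 ± 1.83% in xal1-2 and 53.5 ± 1.04% in WT, and CA2 37.2 ± 1.64% in xal1-2 and 36.1 ± 1.53% in WT (SD, n = 3 each), with CA1 as the small remainder in both.

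Such shares depend on the annotation. PGIV-1 has 1472 bases of annotated exon and PGIV-2 has 774, and by reads alone PGIV-1 took 19.1% of the pair in xal1-2 and 20.2% in WT. Per kilobase it took 11.0% in xal1-2 and 11.8% in WT. By reads alone the order of the CA genes turned, with CA2 at 55.6% in xal1-2 and 54.4% in WT and CA3 at 35.6% in xal1-2 and 36.4% in WT. TYKY-1 by reads alone took 48.2% in xal1-2 and 46.6% in WT, so the larger copy of that pair turned as well. The copies share no stretch of 50 exon bases with each other. Exons of 5 genes overlap a gene on the same or the other strand, and their reads may be mixed, since no strand setting of the counting is known. For CA2, 28.7% of its 50-base exon stretches are shared with AT1G47250, a proteasome subunit gene with 351.5 to 403.7 scaled counts in xal1-2 and 348.2 to 394.1 in WT. For PDSW-1 54.2% are shared with AT1G49150, which had at most 3.5 scaled counts in any library, and for B16.6-2 19.2% are shared with AT2G33230, which had at most 4.4. B16.6-1 (6.35%) and B13 (2.88%) share less.

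Levels were compared between genes as reads per kilobase of annotated exon and per library total (RPKM). AGGG had 313 ± 12 RPKM in xal1-2 and 396 ± 25 RPKM in WT (SD, n = 3 each), the highest mean of the 35 genes in WT. MWFE had the highest mean in xal1-2, with 332 ± 33 RPKM in xal1-2 and 341 ± 13 RPKM in WT, and B17.2 had 312 ± 12 RPKM in xal1-2 and 298 ± 16 RPKM in WT. In xal1-2 these 3 genes had overlapping levels, whereas in WT AGGG stood above the other 2 in every library. At the low end stood PGIV-1 with 19.5 ± 2.0 RPKM in xal1-2 and 18.4 ± 0.55 RPKM in WT, CA1 with 30.2 ± 1.4 RPKM in xal1-2 and 26.3 ± 1.2 RPKM in WT, and B16.6-1 with 49.5 ± 4.6 RPKM in xal1-2 and 54.5 ± 0.19 RPKM in WT. The core subunits were held in a narrower range, from 127 RPKM (TYKY-2) to 220 RPKM (PSST) in xal1-2 and from 124 RPKM (TYKY-2) to 242 RPKM (PSST) in WT.

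**Figure D3:**
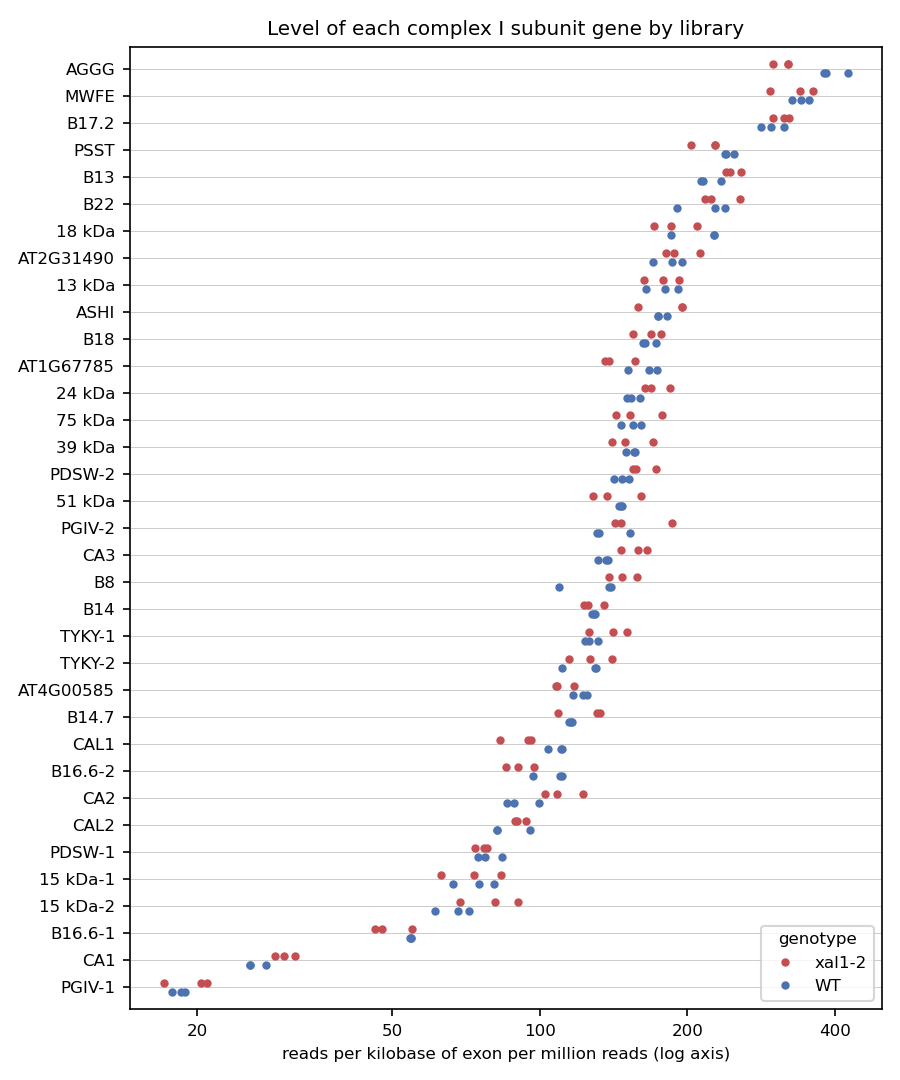
Level of each of the 35 complex I subunit genes in each of the 6 libraries, in RPKM on a log axis, with genes ordered by their mean in WT. RPKM rests on library totals, so groups can overlap here that do not in scaled counts (B16.6-1), or the reverse (24 kDa). The order runs from AGGG to PGIV-1, and for AGGG the 3 xal1-2 points lie apart from and below the 3 WT points.

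Summed over the 35 genes, complex I transcripts took 0.552%, 0.612% and 0.545% of all reads in xal1-2 and 0.581%, 0.562% and 0.537% in WT. In scaled counts the sum was 46127 ± 3541 in xal1-2 and 47293 ± 3041 in WT (SD, n = 3 each). The spread between replicates was thus larger than the difference between the genotypes.

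Within each genotype the genes moved together from library to library. Replicate 2 of xal1-2 was the highest library of its genotype for 29 of the 35 genes, with a median deviation of 0.12 from the genotype mean on the log2 scale, while replicate 1 was the lowest for 19 and replicate 3 for 15. In WT replicate 1 was the highest for 27 genes, and replicate 3 was the lowest for 32 with a median deviation of -0.10. Over all genes tested the median deviations of these libraries lay between 0 and 0.008, and over the 7509 genes of like or higher level between -0.02 and 0.02. Of the 7509 genes, xal1-2 replicate 2 was the highest of its genotype for 2631. WT replicate 1 was the highest of its genotype for 2667 of them, and WT replicate 3 the lowest for 3357. The 52 genes listed for complexes II to V had xal1-2 replicate 2 highest for 44 and WT replicate 3 lowest for 40. They differed in the highest WT library, which was replicate 2 for 25 genes and replicate 1 for 21, against 7 and 27 of the 35 complex I genes. The values of the 35 genes are thus not independent of each other, and the median over the 35 genes moved with the libraries taken. With xal1-2 replicate 1 left out it was 0.03, and with xal1-2 replicate 2 left out -0.08. Leaving out WT replicate 1 gave 0.02 and leaving out WT replicate 3 gave -0.09.

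**Figure D4:**
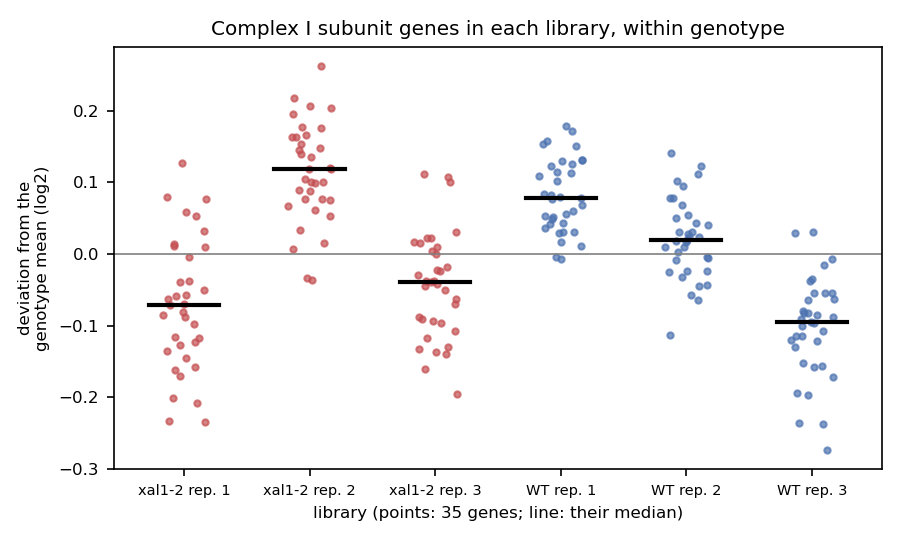
Deviation of each of the 35 complex I subunit genes from its genotype mean (log2 scale, vertical axis) in each library, with a line at the median. The points of xal1-2 replicate 2 lie mostly above 0 and those of WT replicate 3 mostly below 0.

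The other nuclear genes of the respiratory chain were set beside complex I. Medians of the log2 fold change were 0.03 over 13 genes of complex II (succinate dehydrogenase), 0.01 over 15 of complex III, 0.06 over 10 of complex IV and 0.03 over 14 of complex V. Of these 52 genes 1 rose, beside 405 of 24441 genes tested that were called higher, and 0 fell, beside 556. The gene called was ATP g-1 (AT2G19680), a subunit of the membrane part of ATP synthase. It had 329.9, 340.7 and 299.1 scaled counts in xal1-2 and 229.1, 227.0 and 250.4 in WT (log2 fold change 0.45, adjusted p = 0.041 in limma). It was called only with WT replicate 3 left out among the 6 fits that omit a library (0.0455), and its adjusted p was up to 0.160 in the others. With all libraries it had an adjusted p of 0.036 in edgeR and 0.057 in DESeq2.

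Complex I also depends on factors that splice, edit or stabilise the mitochondrial nad transcripts or help to assemble the complex. All 22 genes of this list lay above 0, beside 12108 of 24441 genes tested. The median log2 fold change over the list was 0.34 (lowest 0.04). Of the 22 genes 1 was called, beside 405 of all genes tested that were called higher. The gene called was NMAT2 (AT5G46920), a maturase that splices introns of mitochondrial transcripts. NMAT2 rose to 133.5, 142.8 and 162.4 scaled counts in xal1-2, against 99.9, 85.9 and 94.1 in WT (log2 fold change 0.64, adjusted p = 0.034 in limma). With all 6 libraries its adjusted p was 0.027 in edgeR and 0.034 in DESeq2. It was not called by limma when any 1 of the 6 libraries was left out (adjusted p up to 0.141). At an unadjusted p under 0.05, 8 of the 22 genes were higher in xal1-2, beside 9.02% of all genes tested, and 0 lower, beside 10.5%. Most of these genes are weakly expressed. For 15 of the 22 WT replicate 3 was the highest wild-type library, beside 10072 of 24441 genes tested. The same library was the lowest for most of the subunit genes. The nad genes themselves gave 211 reads over all 6 libraries and 14 listed features, of which the nad1A feature was at 0. The libraries were made from polyadenylated RNA, and of the 13 features tested none was called by limma (1 at an unadjusted p under 0.05). The filters of edgeR and DESeq2 on low counts left none of them with an adjusted p.

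NADH can also be oxidised without proton pumping by alternative NAD(P)H dehydrogenases, single proteins of the inner membrane. Of 7 genes 3 rose in xal1-2 (limma), beside 405 of 24441 genes tested. NDA1 had 36.5, 58.6 and 40.6 scaled counts in xal1-2 and 4.3, 6.6 and 9.1 in WT (log2 fold change 2.61), NDB3 had 114.1, 131.3 and 131.5 in xal1-2 and 1.1, 1.1 and 1.8 in WT (5.77), and NDB4 had 179.2, 286.6 and 166.8 in xal1-2 and 1.1, 2.2 and 3.7 in WT (6.03). NDA2, NDB1, NDB2 and NDC1 were not called, with log2 fold changes of 0.13, 0.004, 0.24 and 0.21. The mitochondrial dysfunction motif occurred before 3 of the 7 genes (NDA1, NDB2 and NDB3).

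**Figure D5:**
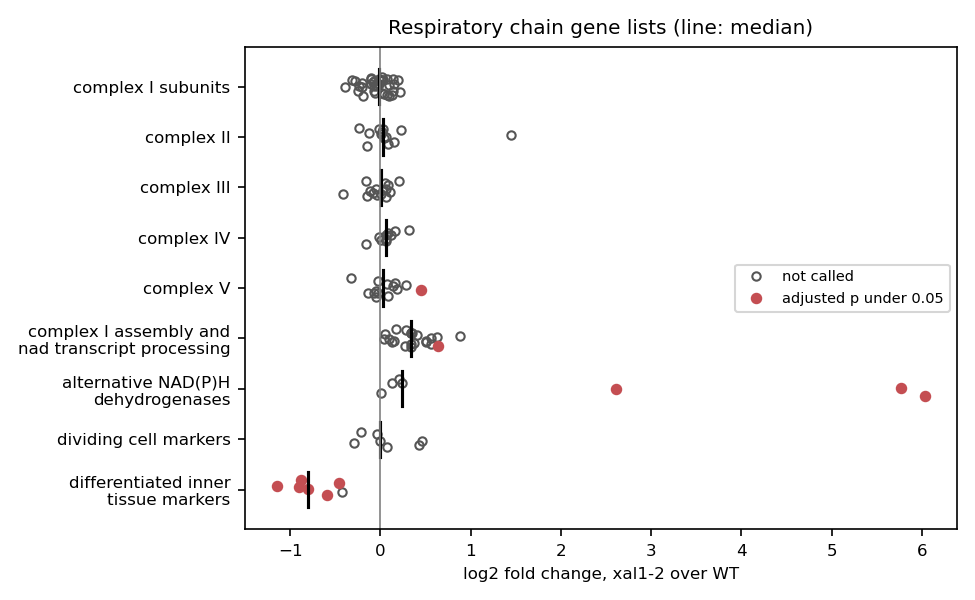
Log2 fold change (xal1-2 over WT) of each gene in the complex I subunit list and the lists set beside it, with a line at each median; filled points passed an adjusted p of 0.05 in limma. Complex I subunit genes cluster at 0 with no filled point, while NDA1, NDB3 and NDB4 lie between 2.61 and 6.03.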

How the data were processed

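Poly(A) RNA of 3 xal1-2 and 3 WT root samples was sequenced as paired-end stranded libraries, per the labels. The submitters' processing notes name TAIR10 as the build and Trimmomatic 0.39, FastQC 0.11.9, DESeq2 and Subread 2.0.1 as tools. Settings, such as strand and the treatment of reads matching several genes, are not given there or in the other sources used here. The authors deposited, for 32833 genes, a signal per library that equals read counts divided by a size factor. Within a tolerance of 0.001, 100% of the values above 0 came out as whole reads. The authors' deposited log2 fold changes, their standard errors and test statistics (scores) and their p-values were used only where the authors' table is named.

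The test was limma 3.58.1 (R 4.3.3), with an intensity trend, on the log2 of the scaled count plus 1, with genotype as the only term and Benjamini-Hochberg adjustment over all genes tested. A gene was called at an adjusted p under 0.05. Fold changes on this scale understate the change of genes of low level. Tested were 24441 genes with reads in any library, and the other 8392 were left out. edgeR 4.0.16 (quasi-likelihood test) and DESeq2 1.42.0 on the recovered reads, other scalings, pseudocounts of 0.1 and 5, a filter at a mean scaled count of 10, the replicate number as a block and the omission of each library were alternatives. The procedure was tested on simulated data. The 3 samples of a genotype differed beyond sampling noise (chi-square per degree of freedom of 3.94 to 9.70), and each counted as a replicate.

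Exon lengths, coordinates and promoter windows are those of TAIR10.1 (RefSeq), in which all 35 genes were found, and 32548 of the 32833 identifiers matched. The complex I genes and the comparison lists were chosen with earlier results of these data known. The text names all 35 genes, XAL1, the 7 alternative dehydrogenases and, of other lists, at most 3 called genes per list and direction. The comparison with the 7509 genes of like or higher level was added after seeing the data.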

Additional observations from a re-analysis of the deposited data

How the results depend on the processing

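The number of genes called in all ran from 81 (without xal1-2 replicate 1) to 871 (without WT replicate 3) when 1 library was left out, against 961 with all 6. For the complex I subunit genes 1 call was made with the filter at a mean of 10, 1 with DESeq2 and 2 at an adjusted p under 0.1, and 0 in every other alternative run, the omission of any library included. Of all genes 3.93% were called in the main fit, and DESeq2 called 1038. The shares of all genes with the filter and at an adjusted p under 0.1 are not given here. In the lists set beside the complex I subunit genes, complexes II to V had 0 calls in DESeq2 and 0 to 1 without a library. The assembly and nad processing list had 2 with the filter at a mean of 10, 2 in edgeR and 0 without any 1 library. The replicate numbers are not known to pair the samples: deviations of same-numbered libraries correlated at 0.01, 0.28 and 0.01 over 18823 genes, and own numbers correlated best for 2 of the 3. With the replicate block 839 genes were called, with 0 complex I subunit genes (AGGG 0.0794), 0 genes of complexes II to V (ATP g-1 0.0696) and 0 of the assembly list (NMAT2 0.052). For these and the other lost calls the cause was not tested. No called value turned its sign. Of the 35 subunit genes 4 changed sign with library totals and 2 to 8 without a library, and none of the 11 with an absolute log2 fold change of at least 0.15 did. Differences smaller than the intervals given could not be detected with 3 libraries a genotype, and larger ones could be missed as well. None of the 4 subunit genes at an unadjusted p under 0.05 in limma with all 6 libraries passed the adjusted p of 0.05.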
